A study of Rattus norvegicus with 9 samples.

Results

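The endocardial miRNA profile of the rat left ventricle was described from the 3 endocardium libraries of the series, of 9 libraries in all. Small RNA was sequenced from the hearts of 3 male Sprague-Dawley rats aged 8 months, referred to as hearts 6, 7 and 8, and each heart gave 1 library for each of 3 layers of the left ventricular free wall (epicardium, mid-myocardium and endocardium). All were killed with sodium pentobarbital and otherwise untreated as far as the labels state, so the 3 endocardial libraries form a single group, and the members were chosen by tissue label alone. The endocardial layer was the tissue cut away about a millimetre below the inner surface, and so could hold ventricular muscle, vessels and blood besides the endothelial lining. RNA of high integrity was made into libraries with the Illumina TruSeq small RNA kit, and reads were annotated by the authors to miRBase entries of rat or of other species. Because each heart has 1 endocardial library, values are given per heart and as mean ± SD (n = 3), and no test was made.

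A miRNA is cut from a hairpin precursor by Drosha and then by Dicer, which leaves a short duplex. The strand that is loaded into an Argonaute protein guides it to messenger RNAs, chiefly through the seed (nts 2 to 8 counted from the 5′ end), and the less abundant strand was formerly marked with an asterisk (*). An isomiR is a read of the same miRNA whose ends or bases differ from the mature entry. A change at the 5′ end moves the seed, whereas a change at the 3′ end leaves it in place. In the heart, miR-1, miR-133a, miR-208 and miR-499 are the classical miRNAs of striated muscle, miR-143 and miR-145 of smooth muscle, and miR-126 of endothelium.

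The libraries of hearts 6, 7 and 8 held 711437, 1428025 and 760188 annotated reads, against 283991 to 1052663 in the 6 libraries of the other layers. Heart 7 stood apart, with about as many annotated reads as the other 2 endocardial libraries together and a larger share of unannotated reads (49.1%, with 39.5% and 39.2% in hearts 6 and 8). Heart 6 stood apart by low values of miR-10a, miR-10b, miR-99a, miR-99b, miR-100 and miR-125a, described further on. Abundance is given as RPMM, the reads of a miRNA scaled to 1000000 annotated reads of its library, and 3 reads correspond to 4.22, 2.10 and 3.95 RPMM in hearts 6, 7 and 8. In bulk tissue, fewer cells of a type and less RNA per cell cannot be told apart.

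The 10 most abundant miRNAs are shown by their mature miRBase sequences, since these carry the profile, with the seed in capitals.
miR-486: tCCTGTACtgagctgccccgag
miR-22: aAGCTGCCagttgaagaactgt
miR-143: tGAGATGAagcactgtagctca
miR-133a: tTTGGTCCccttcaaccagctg
miR-30a: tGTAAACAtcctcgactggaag
miR-26a: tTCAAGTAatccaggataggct
miR-181a: aACATTCAacgctgtcggtgagt
miR-378: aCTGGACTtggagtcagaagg
miR-27b: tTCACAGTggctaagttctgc
miR-30d: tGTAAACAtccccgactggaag

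These are RefSeq mature sequences too for all but miR-486 and miR-30d, which had no match in the RefSeq table used. On the RefSeq positions in the build GRCr8, miR-22 lay at chr10:60805387-60805408 on the plus strand, outside any other annotated gene. The sequence of miR-143 lay at chr18:57371373-57371394 on the minus strand, within the span of the long non-coding RNA gene Carmn. A copy of miR-133a lay at chr18:2157886-2157907 on the minus strand, within the span of Mib1, as did miR-1 at chr18:2160339-2160360. The miR-378 sequence lay at chr18:57128925-57128945 on the minus strand, within Ppargc1b, which encodes a coactivator of mitochondrial genes, and miR-26a lay at chr8:127633063-127633084 on the plus strand, within Ctdspl.

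A few miRNAs made up most of the endocardial reads. The most abundant miRNA of each library took 17.96% ± 4.19 of the annotated reads, the 4 most abundant 49.6% ± 2.58, the 10 most abundant 68.3% ± 2.19 and the 20 most abundant 81.8% ± 0.779. The shares of the first 20 were 82.4%, 82.1% and 80.9% in hearts 6, 7 and 8, a narrower spread than that of the leading miRNA. Detection, set at 10 or more reads in any of the 3 libraries, was reached by 287 of the 304 listed miRNAs, of which 147 were rat miRNAs, 75 were filed under entries of other species and 65 were * strands. In all 3 libraries 214 passed this limit. These are counts of listed entries, and the same miRNA can be listed under several species, as bta-miR-15a and age-miR-15a were. By their mean, 3 miRNAs exceeded 100000 RPMM, 18 exceeded 10000, 56 exceeded 1000 and 131 exceeded 100, and in every heart 2, 13, 50 and 120 did so.

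The profile was led by miR-486, miR-22, miR-143 and miR-133a. In hearts 6, 7 and 8 the level of miR-486, a muscle-enriched miRNA that is also abundant in red cells, was 146183, 226887 and 147332 RPMM (173467 ± 46266). No rat entry was used for it, and the cattle (Bos taurus) entry took 97.1% ± 0.0720 of its reads, the macaque entry 2.70% and the mouse entry 0.250%. For miR-22, studied for its part in cardiac hypertrophy, the values were 164456, 100138 and 135493 RPMM (133362 ± 32212). The smooth muscle miRNA miR-143 had 105356, 138653 and 92882 RPMM (112297 ± 23662), and the striated muscle miRNA miR-133a had 84138, 54091 and 92963 RPMM (77064 ± 20378). Heart 7 was the highest of the 3 in miR-486 and miR-143 and the lowest in miR-22 and miR-133a.

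The next 6 miRNAs lay between 22741 and 41062 RPMM by their means. These were miR-30a (41062 ± 3929), miR-26a (40912 ± 7624), miR-181a (28362 ± 5868), miR-378 (27251 ± 6667), miR-27b (24484 ± 3390) and miR-30d (22741 ± 3989), in RPMM. Below them came miR-191 (19669 ± 629), miR-30c (18858 ± 6639), let-7f (15865 ± 2856), miR-10a (14915 ± 9706) and miR-125a (11859 ± 5511). The list of 20 closed with miR-30e (11713 ± 3844), let-7a (10793 ± 1431), miR-92a (10782 ± 995), the lymphocyte miRNA miR-150 (9588 ± 2726) and miR-99b (8587 ± 6286).

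The order of these miRNAs was mostly not separated by the spread between hearts. In heart 6, miR-22 held rank 1 and miR-486 rank 2, whereas miR-486 held rank 1 in hearts 7 and 8, and without heart 7 the mean of miR-22 was above that of miR-486. Of the 20 neighbouring pairs from rank 1 down, 2 kept their order in all hearts (miR-133a above miR-30a, and miR-30d above miR-191). Only for miR-133a and miR-30a did the ranges over hearts stay apart, with 54091 as the lowest value of miR-133a and 44780 as the highest of miR-30a.

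**Figure D1:**
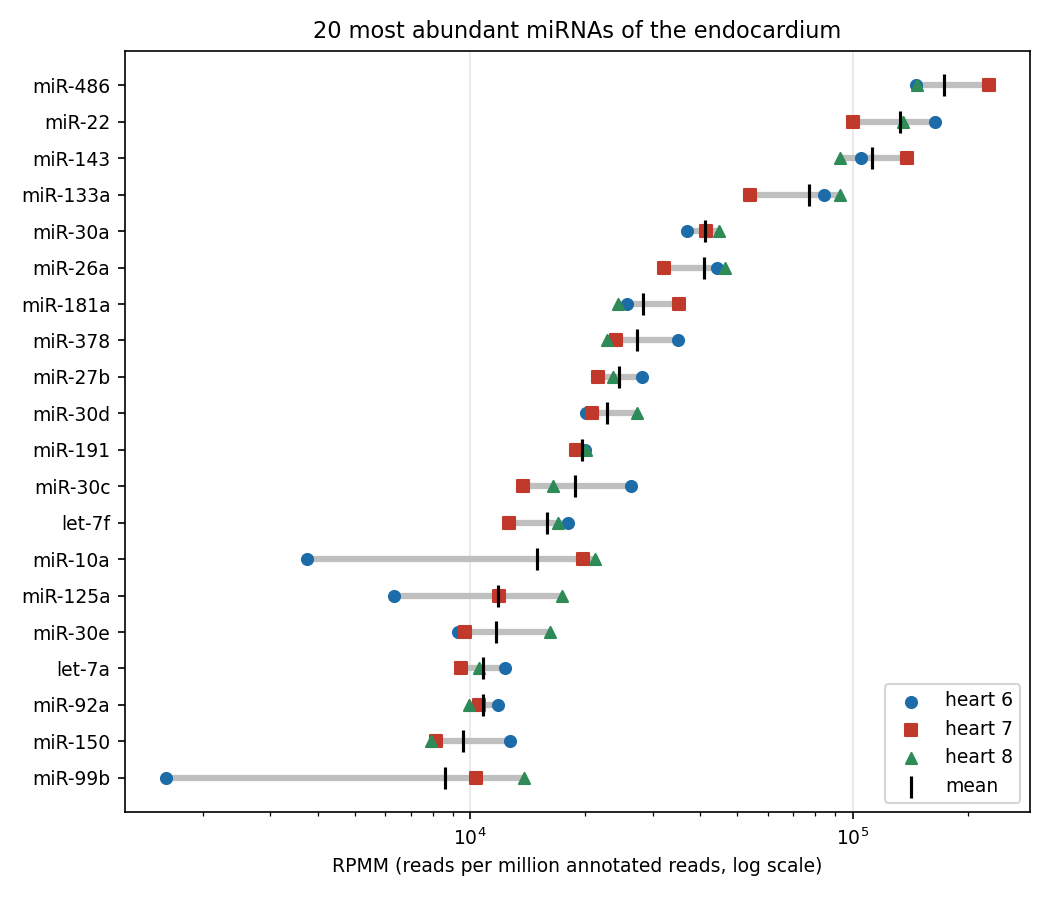
RPMM (log axis) of the 20 most abundant endocardial miRNAs, 1 row for each, with a point for each of hearts 6, 7 and 8, a grey line from the lowest to the highest and a black tick at the mean. Most rows overlap their neighbours, and the points of heart 6 lie far to the left for miR-10a (3742 RPMM) and miR-99b (1604 RPMM).

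Grouped by seed family, the mean of the miR-30 family lay below only those of the 3 leading miRNAs, and in heart 8 its sum was above miR-143. Its 5 members (miR-30a, miR-30b, miR-30c, miR-30d and miR-30e) summed to 95262, 87040 and 106528 RPMM (96277 ± 9783). The sum varied 1.22-fold between hearts, and single members from 1.21-fold (miR-30a, the largest) to 2.05-fold (miR-30b). The 7 let-7 members listed, which act in developmental timing, summed to 44403 ± 4355 RPMM, and miR-26a with miR-26b to 45447 ± 8579. The miR-29 family, which targets collagen messages, summed to 8101, 4387 and 7644 RPMM, and miR-15b, miR-16, miR-195 and miR-497 to 8006, 3636 and 4412. Both of these sums were lowest in heart 7.

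The muscle lists held the highest sums, together with the red cell list that shares miR-486. The 8 striated muscle miRNAs summed to 255994 ± 26415 RPMM, of which miR-486 and miR-133a gave most. By reads filed under mature names, 6 of the 8 had at least 10 reads in a library. Reads filed as precursor matches, given further on, are not in the list sums, and miR-208b had 2496, 2912 and 1601 of them. The level of miR-1 was 2603, 3465 and 4871 RPMM (3646 ± 1145), with fewer reads than miR-133a, which is cut from a transcript shared with miR-1. Read numbers of different miRNAs also depend on how well each is ligated to the adapters, which was not measured here. The myosin intron miRNA miR-499 had 749, 517 and 1058 RPMM (775 ± 271), and miR-208 had 160, 117 and 228 RPMM (168 ± 55.7). At 1, 0 and 0 reads, the skeletal muscle miRNA miR-206 did not exceed the 3-read floor.

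Smooth muscle was represented by miR-143 and by miR-145 at 3049, 1846 and 1485 RPMM (2127 ± 819). The 4 endothelial miRNAs summed to 14199, 10744 and 14315 RPMM (13086 ± 2029). This sum was nearly all miR-126* (8345 ± 824) and miR-126 (4566 ± 1224), with miR-221 at 113 ± 36.8 and miR-222 at 61.9 ± 4.09 RPMM. The fibroblast list summed to 9752 ± 2117 RPMM, led by miR-29a (5809 ± 1751), miR-21 (2667 ± 64.2) and miR-29c (765 ± 257). No read was filed under miR-199a*, but reads of the 3p arm of miR-199a were filed as precursor matches. They are given further on and are not in this sum.

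Blood-borne miRNAs were present in every library. Among red cell miRNAs, miR-451 had 652, 416 and 624 RPMM (564 ± 129) and miR-144 had 41.6 ± 24.7, so the red cell sum of 174073 RPMM was miR-486, which the muscle list shares. The leukocyte list summed to 13804, 9843 and 9215 RPMM (10954 ± 2488), of which miR-150 gave 9588, miR-146a 871 ± 231 and miR-142 236 ± 62.5. No read carried the rat name miR-155, and 14, 31 and 9 reads were filed under its mouse entry.

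Markers of other tissues were low. The neural list summed to 306, 359 and 374 RPMM (346 ± 35.4), led by miR-128 (194 ± 33.96), miR-9 (98.8 ± 41.3) and miR-218 (35.7 ± 16.8), and miR-124 had 0 reads in each library, which allows up to 4.22, 2.10 and 3.95 RPMM. The epithelial list summed to 55.3 ± 17.96 RPMM, led by miR-203 (23.1 ± 7.44), miR-200c (13.1 ± 8.46) and miR-141 (8.89 ± 3.47). The liver miRNA miR-122 had 0, 1 and 0 reads and the islet miRNA miR-375 had 2, 5 and 1. Intervals and floors based on reads cover counting error only, because amplified reads were not traced to single molecules.

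Some cardiac miRNAs stood outside the grouped values because their reads were filed as precursor matches. Of these rat reads, 48.9% ± 1.99 were under 20 nts and 82.3% ± 2.14 started within 3 nts of a RefSeq mature arm. The miR-208b sequence, from an intron of a myosin heavy chain gene, is shown with the shorter RefSeq entry.
miR-208b read: aTAAGACGaacaaaaggtttgt
miR-208b RefSeq: aTAAGACGaacaaaaggt

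Reads placed on this miR-208b arm came to 3508, 2039 and 2106 RPMM (2551 ± 830), against 1, 2 and 5 reads filed under its mature name. The 3p arm of miR-199a had 1923, 1087 and 2176 RPMM (1728 ± 570) of the same kind. Reads with the miR-148a-3p sequence, filed under the precursor of miR-148b, came to 2423, 3381 and 3111 RPMM (2972 ± 494), and miR-208a-3p reads to 177 ± 95.5. Reads of this kind from miRNAs already in the grouped values were not added to them. Counted on such reads alone, miR-148a-3p, miR-208b and the 3p arm of miR-199a brought the miRNAs above 1000 RPMM from 56 to 59. These arms were singled out after their values were seen.

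Reads filed under entries of other species made up a further part of the profile. After miR-486, the most abundant were miR-149 at 5208, 3034 and 3661 RPMM (3967 ± 1119), mmu-miR-5115 at 721, 4595 and 2787 (2701 ± 1938), hsa-miR-744 at 362 ± 56.6 and dre-miR-92a at 359 ± 91.0. RefSeq holds a rat miR-149-5p, tCTGGCTCcgtgtcttcactccc, which was also the most common read of that arm. Reads inside the RefSeq hairpin Mir676 numbered 127, 334 and 135 (197 ± 32.2 RPMM), and miR-410, of the imprinted Dlk1-Dio3 region, had 13, 46 and 13 reads (22.5 ± 8.41 RPMM).

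In most hairpins the * strand was the minor one, but not in all. Of 72 * strands listed, 65 had at least 10 reads in a library and 44 did in all 3. A partner strand was listed for 56, and of these 46 lay below the partner in all hearts, 9 lay above it in all hearts and 1 was mixed. The median ratio of * strand to partner was 0.0517, with 33 ratios under 0.1 and 20 under 0.01. The miR-22* and miR-133a* strands were among the lowest, at 0.00123 and 0.00257 of their abundant partners. A further 7 * strands had no partner in the grouped values, and 4 of these were above the partner's reads in all hearts.

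A mean of at least 1000 RPMM was reached by 7 * strands. The most abundant was endothelial miR-126*, at 8552, 7438 and 9046 RPMM (8345 ± 824), which was 1.56, 2.35 and 1.79 times miR-126 in hearts 6, 7 and 8. Next was miR-151* at 6917, 9183 and 6501 RPMM, which was 5.44, 8.66 and 3.56 times its partner. The related miR-28* had 2886, 3308 and 2373 RPMM and was 7.87, 13.4 and 8.67 times miR-28. In all 3 of these hairpins the ratio was highest in heart 7.

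Among the * strands above their partners, the highest ratio was that of miR-140*, which comes from a hairpin in Wwp2 and is known from cartilage. It had 1667, 1633 and 1571 RPMM (1624 ± 48.9) against 7, 16 and 7 reads of miR-140, ratios of 169, 146 and 171. Its reads mostly began 1 nt after the annotated start (55.8% ± 1.76 of reads), so that their seed differed from that of the entry. The most common read of that form and, by its mean share, the most common one with the annotated start are shown with their seeds in capitals.
miR-140* later start: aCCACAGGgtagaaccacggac
miR-140* annotated start: tACCACAGggtagaaccacggaa

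The first made up 27.7% ± 3.31 and the second 9.98% ± 2.68 of the miR-140* reads. In hearts 6 and 7 the second less its last nt was the more common, at 9.78% against 8.60% and at 9.82% against 8.28%. The other * strands above their partners in all hearts were miR-423* (1.61, 2.45 and 1.504 times), miR-455* (14.7, 20.2 and 24), miR-361* (1.90, 1.70 and 1.51), miR-872* (3.58, 1.65 and 1.31) and miR-106b* (3.11, 8.86 and 2.33). Of these, miR-455 had only 6, 10 and 2 reads on the partner strand and miR-106b had 18, 14 and 18, so their ratios rest on small counts. Abundant * strands need not exceed their partners, since let-7d* (1444 ± 295 RPMM) stood at 0.896, 0.886 and 0.988 of let-7d and miR-30e* (2135 ± 502) at 0.208, 0.279 and 0.110 of miR-30e.

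**Figure D2:**
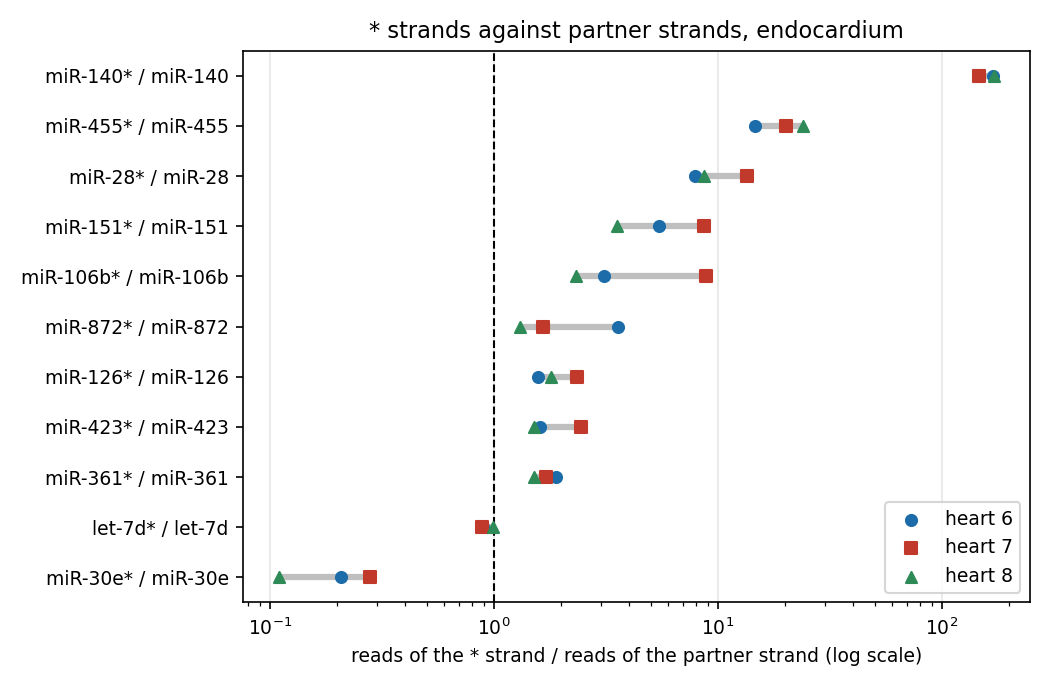
Reads of the * strand divided by reads of the partner strand (log axis) for * strands above their partner in all hearts or with a mean of at least 1000 RPMM, with a point for each of hearts 6, 7 and 8, a grey line over their range and a dashed line at 1. The miR-140* ratios lie between 146 and 171, whereas let-7d* and miR-30e* lie below 1 in all hearts.

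Ends were assigned for 97.5% to 97.8% of the reads of rat mature and * entries, after setting aside reads whose names join several entries. Ends were compared by position. A read with the entry's start and length but another last base was therefore not counted as having another 3′ end. The 3′ end differed from the mature entry in 50.7%, 55.9% and 55.2% of reads (53.9% ± 2.81), being longer in 29.9% ± 2.13 and shorter in 24.1% ± 4.41. The 5′ end differed in 8.14%, 6.90% and 9.12% (8.05% ± 1.11), nearly always by loss (7.27% ± 1.16) rather than gain (0.780% ± 0.0687). The 95% Wilson intervals of these shares in single libraries were narrower than 1 percentage point.

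The pooled 5′ ends of 3p arms varied more than those of 5p arms, and a single miRNA carried most of this difference. Reads of 5p arms had another 5′ end in 1.68%, 3.78% and 3.15% (2.87% ± 1.07), and reads of 3p arms in 12.5%, 9.78% and 14.6% (12.3% ± 2.42). Without miR-133a, described further on, the 3p share was 3.45%, 3.41% and 3.41%, so that the ranges of the arms overlapped and heart 7 had the higher share on 5p arms. Over both arms the share then fell from 8.05% to 3.08% ± 0.406. The 3′ end differed in 57.02% ± 2.96 of 5p reads and in 49.9% ± 2.63 of 3p reads, and without miR-133a in 40.6% ± 5.04 of 3p reads. Without miR-22, the most abundant rat miRNA and a 3p arm with a nearly uniform end, another 3′ end was found in 64.3% and another 5′ end in 9.67% of all reads.

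Bases at the 3′ end that did not match the hairpin were found in 13.7%, 15.8% and 12.7% of reads of entries with a RefSeq hairpin (14.1% ± 1.59). Most were a single T (8.89% ± 1.24) or a single A (2.87% ± 0.321). On 3p arms T was the more common (12.5% ± 2.25 against 1.60% ± 0.160 for A), and on 5p arms A was slightly the more common by its mean (4.66% ± 0.626 against 3.75% ± 0.262 for T). In heart 6 the 5p order was the other way, at 3.94% for A and 4.02% for T. Of all reads with such bases, 47.8%, 53.0% and 41.0% were miR-143 reads. Without miR-143 the share of reads with unmatched bases was 8.96% ± 0.623, and on 3p arms a single T was found in 3.52% ± 0.205 and a single A in 1.98% ± 0.0876. These values without miR-133a or miR-143 were added after seeing the data.

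Of the 10 leading miRNAs, 4 had the mature entry as their most common sequence in all hearts (miR-486, miR-22, miR-26a and miR-181a). The exact mature share ran from 93.1%, 91.1% and 92.9% for miR-22 (92.4% ± 1.11) to 2.25%, 2.99% and 3.23% for miR-30a (2.82% ± 0.510), and the median over the 10 was 22.8%. In miR-486 the exact mature sequence took 40.7%, 40.9% and 41.0% (40.9% ± 0.166), the smallest SD of the 10. For miR-26a it took 69.6% ± 1.12, for miR-181a 48.9% ± 1.38, for miR-27b 23.2% ± 4.17, for miR-378 22.5% ± 0.872, for miR-143 7.58% ± 0.605, for miR-133a 6.12% ± 1.19 and for miR-30d 3.00% ± 0.241.

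The most common sequences of the other 6 are shown, since they replaced the entry as the main form.
miR-143: tGAGATGAagcactgtagctct
miR-133a: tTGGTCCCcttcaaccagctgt
miR-30a: tGTAAACAtcctcgactggaagct
miR-378: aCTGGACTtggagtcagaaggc
miR-27b: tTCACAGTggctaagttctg
miR-30d: tGTAAACAtccccgactggaagct

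In 5 of these the seed was that of the entry and the change lay at the 3′ end. The form of miR-143 carried A22T (position 1 being the first nt of the mature entry, at its 5′ end) and took 34.1%, 28.7% and 30.4% of its reads (31.1% ± 2.72), ahead of the entry shortened by 1 nt (29.2% ± 1.92) and by 2 nts (22.6% ± 1.93). In heart 7 the form shortened by 1 nt was the more common, at 31.4%. The miR-30a and miR-30d forms were 2 nts longer than their entries and took 58.2% ± 2.73 and 56.4% ± 3.18. The miR-27b form was 1 nt shorter (54.3% ± 3.96), and the miR-378 form was 1 nt longer (30.3% ± 3.05).

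For miR-133a the main form lacked the first nt of the entry and had 1 more at the 3′ end. It took 43.1%, 38.9% and 42.9% of reads (41.6% ± 2.33), and the form with the entry's 5′ end and the same 3′ end, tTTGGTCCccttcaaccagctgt, took 37.0%, 41.2% and 38.6% (38.9% ± 2.10), so their order was reversed in heart 7. Across all its reads, another 5′ end was found in 54.3%, 48.4% and 53.4% (52.1% ± 3.20). Counted by the seed that reads actually carried, TGGTCCC of miR-133a reads came to 45000, 25806 and 49002 RPMM and TTGGTCC to 39559, 28471 and 44067. The shifted seed was thus the more abundant in hearts 6 and 8 and the less abundant in heart 7. Among the rest of the 10, another 5′ end exceeded 10% of the reads only in miR-378 (11.9%, 15.4% and 13.0%).

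**Figure D3:**
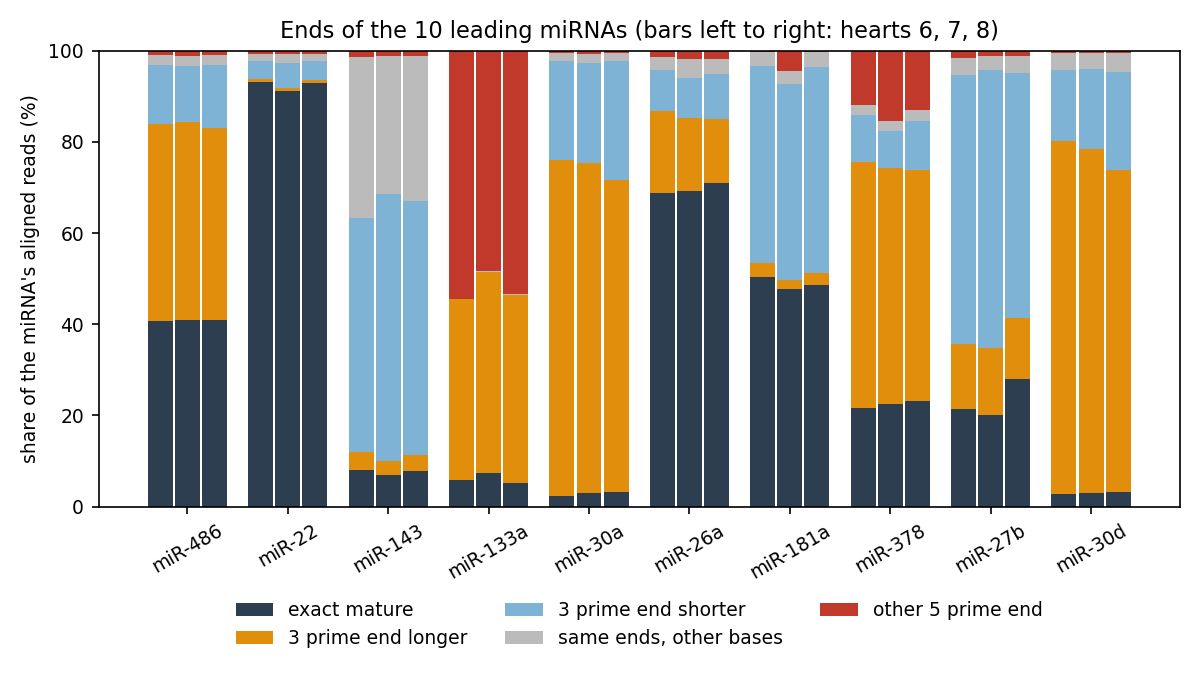
Share (%) of the aligned reads of each of the 10 leading miRNAs with the exact mature sequence, a longer or shorter 3′ end, the same ends but other bases, or another 5′ end, as stacked bars for hearts 6, 7 and 8 from left to right. The bars of 1 miRNA resemble each other across hearts, with miR-22 almost wholly exact (92.4%), miR-133a with another 5′ end in 52.1% and miR-30a and miR-30d mostly longer.

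Over the 52 rat entries with at least 1000 RPMM, the mature entry was the most common sequence for 29 and another sequence for 23. This count takes the hearts together, and the leading sequence need not be the same in each heart. The median exact share was 40.2%, with 15 entries over 50% and 10 under 10%. The 5′ end was stable in most, with another 5′ end in under 2% of reads for 35 entries and over 10% for 7. Of the 38 entries with a hairpin, 9 had unmatched 3′ bases in over 20% of reads.

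The cardiac miRNA miR-1 and the developmental miR-10a and miR-10b departed from their entries in other ways. Reads of miR-1 mostly carried G17A, counted from the 5′ end of the miR-1 entry, at 76.5%, 76.5% and 77.4% (76.8% ± 0.529), with Wilson intervals of 74.5% to 78.4% in heart 6. The entry and the most common read are shown.
miR-1 entry: tGGAATGTaaagaagtgtgtat
miR-1 main read: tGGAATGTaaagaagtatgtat

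The main read took 56.6% ± 2.24 of miR-1 reads and the exact entry 16.2% ± 0.280, both with the same seed. The main read is identical to the sequence of miR-1b, so G17A need not be a base change in miR-1 itself. Whether reads with A at position 17 came from miR-1b was not tested. For miR-10b, which lies beside the Hoxd genes, 88.5% ± 1.21 of reads began 2 nts before the entry and 11.4% ± 1.12 began 1 nt before it, while only 0, 4 and 0 reads began at the entry itself. Its close relative miR-10a began at the entry in 80.8% ± 0.780 and 1 nt later in 18.6% ± 0.796. The entry of miR-10b and the main reads of both are shown with nts 2 to 8 in capitals.
miR-10b entry: cCCTGTAGaaccgaatttgtgt
miR-10b main read: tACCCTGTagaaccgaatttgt
miR-10a main read: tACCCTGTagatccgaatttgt

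The main reads of both relatives thus shared a seed that the miR-10b entry did not have. In contrast, miR-21, a miRNA of cardiac fibroblasts and injury, kept its 5′ end in 99.3% ± 0.0455 of reads, and its exact sequence took 38.2%, 44.4% and 44.8% (42.5% ± 3.68). The main miR-99b read, cACCCGTAgaaccgaccttgc, was the entry less 1 nt (39.9% ± 1.21), just above the entry (33.4% ± 2.52).

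When reads were pooled by the seed they carried, 10 seeds held 74.1% ± 1.35 of annotated reads, out of 451 seeds with at least 10 reads in all 3 libraries. The first 5 were CCTGTAC of miR-486 (17.2% ± 4.52), AGCTGCC of miR-22 (13.3% ± 3.16), GAGATGA of miR-143 (11.3% ± 2.36), GTAAACA of the miR-30 family (9.71% ± 0.989) and GAGGTAG of let-7 (4.599% ± 0.445). The miR-30 and let-7 seeds, each shared by several hairpins, had SDs smaller in proportion to their means than those of the 3 leading miRNAs.

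Differences between the 3 hearts were modest for most miRNAs. Over the 131 miRNAs with a mean of at least 100 RPMM, the highest heart exceeded the lowest by a median of 1.53-fold, with 61 under 1.5-fold, 39 from 1.5- to 2-fold, 25 from 2- to 4-fold and 6 at 4-fold or more. The steadiest were miR-21 (2740, 2646 and 2616 RPMM, 1.05-fold), miR-504 (246, 235 and 233, 1.06-fold), miR-191 (19995, 18944 and 20069, 1.06-fold), miR-140* (1.06-fold) and miR-532 (1.10-fold). This order depends on the scaling, since with median-ratio size factors 1 of these 5, miR-532 (1.10-fold), stayed among the 5 steadiest, and miR-21 came to 1.15-fold. Heart 7 held the lowest value for 60 of the 131 and heart 6 the highest for 66.

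The largest ranges were those of miR-99b (1604, 10365 and 13794 RPMM, 8.60-fold), miR-100 (687, 2674 and 5625, 8.18-fold), mmu-miR-5115 (721, 4595 and 2787, 6.37-fold), miR-10a (3742, 19745 and 21259, 5.68-fold) and miR-10b (363, 1746 and 1269, 4.82-fold). Next was miR-99a (436, 958 and 1938, 4.45-fold), and miR-125a had 6315, 11926 and 17337. All 7 were lowest in heart 6. Of these, miR-99b (chr1:67350070-67350091) and miR-125a (chr1:67350689-67350712) lie on the plus strand within the span of Spaca6, with let-7e (chr1:67350243-67350264) between them in GRCr8. The let-7e values were 810, 734 and 629 RPMM, highest in heart 6.

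Of these 7 miRNAs, 5 (miR-99a, miR-99b, miR-100, miR-125a and mmu-miR-5115) were lowest in heart 6 in all 3 layers. For miR-99b the values were 2462, 14739 and 20256 RPMM in the epicardium and 1972, 7655 and 3572 in the mid-myocardium, and for miR-100 they were 990, 7224 and 6991 and then 743, 2739 and 1558. The other 2, miR-10a and miR-10b, were lowest in heart 6 in the endocardium alone. The level of miR-10a was 33266, 23232 and 27361 RPMM in the epicardium and 28318, 25192 and 3420 in the mid-myocardium, where heart 8 was the low one.

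Entries of the same families also differed in their ends. The exact mature share of miR-99a was 71.7%, 38.0% and 26.6% in hearts 6, 7 and 8, that of miR-125b 56.7%, 27.8% and 25.5%, and that of miR-125a 28.2%, 8.44% and 7.41%. These were the only 3 of the 52 rat entries with at least 1000 RPMM whose share ranged over more than 20 percentage points, and the median range was 2.61 points. Reads shorter than the entry moved the other way, at 26.1%, 51.2% and 62.4% for miR-99a. The shares of miR-99b (31.1%, 33.0% and 36.1%) and miR-100 (39.1%, 41.6% and 41.5%) stayed close, although their levels ranged the most. In the other layers heart 6 also had the highest exact shares, at 24.6% and 27.9% for miR-125a, 54.2% and 56.1% for miR-125b and 60.7% and 60.9% for miR-99a in the epicardium and mid-myocardium.

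**Figure D4:**
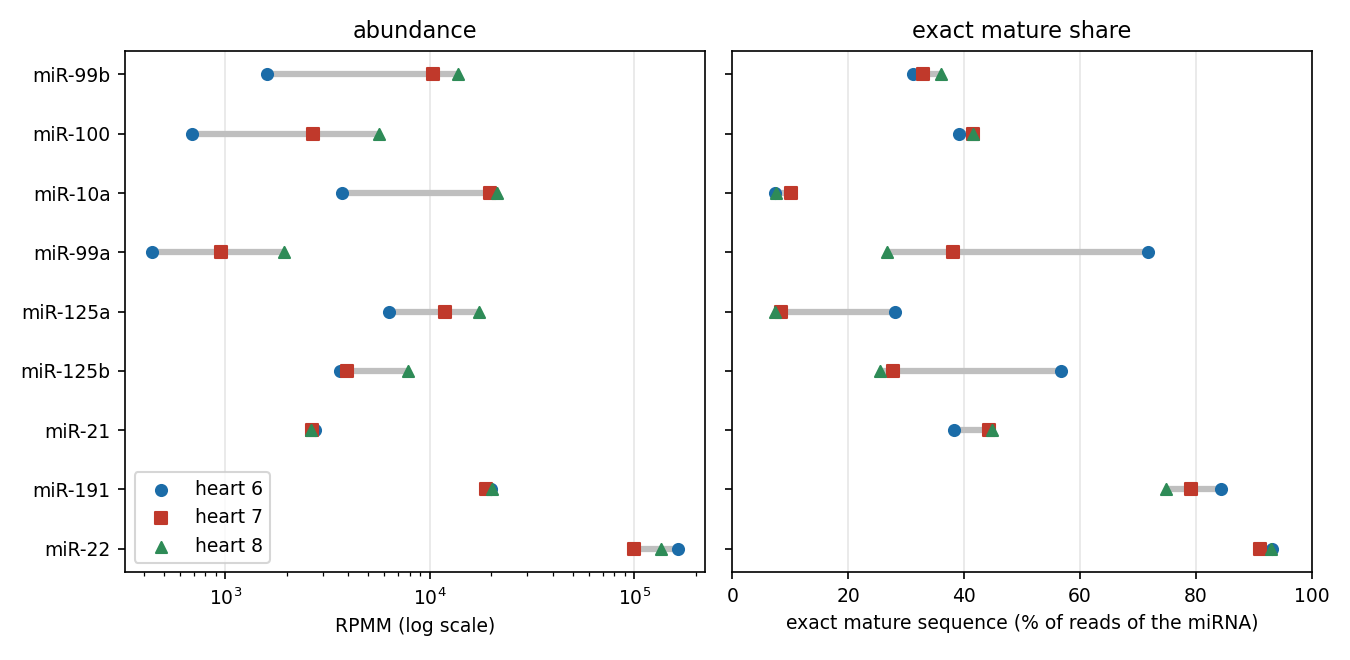
Left, RPMM (log axis), and right, exact mature reads as a share (%) of the miRNA's reads, for 9 miRNAs in the endocardium, with a point for each of hearts 6, 7 and 8 and a grey line over their range. Heart 6 is lowest in RPMM for the upper 6 miRNAs and highest in exact share for miR-99a (71.7%), miR-125a (28.2%) and miR-125b (56.7%), while miR-21 keeps its level.

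A change limited to the endocardial library of heart 7 was seen in miR-181a. Its reads lacking nts 1 and 2 numbered 5, 2129 and 6 in hearts 6, 7 and 8, or 0.0274%, 4.25% and 0.0325% of its reads. In the 6 libraries of the other layers the share was 0.0210% to 0.0799%. This sequence form was chosen once its values were known.

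The median read length was 22 nts in each library, and reads of 22 nts made up 30.1%, 22.8% and 29.1% of all reads (27.3% ± 3.94). Rat miRNAs gave 81.9%, 72.7% and 81.9% of the reads at this length (78.9% ± 5.30). Reads of 25 nts or more took 18.2%, 30.5% and 23.1%, and those of 20 to 24 nts 66.4%, 55.5% and 63.7%, so heart 7 had the most long reads and the fewest of miRNA length. At 15 nts, 98.2% ± 0.184 of reads were unannotated.

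**Figure D5:**
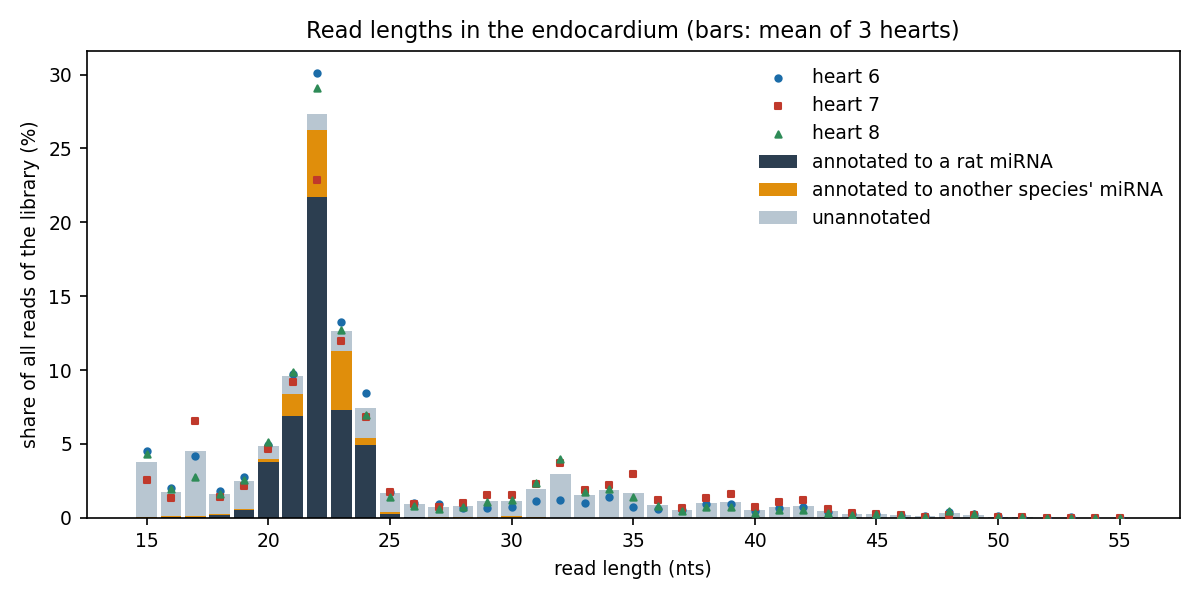
Share (%) of all reads at each length from 15 to 55 nts, as stacked bars of the mean over hearts for reads annotated to rat miRNAs, to miRNAs of other species and unannotated, with points for hearts 6, 7 and 8. The peak at 22 nts (27.3%) is mostly rat miRNA, and most reads under 19 nts and over 25 nts are unannotated.

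Unannotated reads, deposited where a sequence reached 10 reads over the 9 libraries, numbered 465229, 1379536 and 489992, or 39.5%, 49.1% and 39.2% of annotated plus unannotated reads (42.6% ± 5.64, with 95% Wilson intervals no wider than a percentage point). Their median length was 24, 29 and 28 nts. Those of 15 to 19 nts took 30.7% ± 4.72, those of 20 to 24 nts 15.6% ± 3.995, those of 25 to 34 nts 32.4% ± 6.95 and those of 35 to 55 nts 21.4% ± 4.10. Small RNA libraries commonly also hold pieces of longer RNAs such as ribosomal and transfer RNA, and the source of these reads was not looked for here.

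The most common unannotated sequences are shown because a few of them carried much of this share.
15 nts: tgtctgagcgtcgct
17 nts: cgcgacctcagatcaga
32 nts: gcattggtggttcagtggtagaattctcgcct
17 nts, same end: cctgtctgagcgtcgct
35 nts: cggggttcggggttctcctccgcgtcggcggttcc
24 nts: ggaataccgggtgctgtaggcttt

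Scaled to 1000000 annotated plus unannotated reads of hearts 6, 7 and 8, the 15-nt sequence had 34432, 15182 and 29338 reads, and the 17-nt one with the same end had 17345, 5724 and 11146. Both were lowest in heart 7. Together, the 50 sequences with this 3′ end took 23.3%, 7.46% and 16.8% of the unannotated reads. On the same scale the 17-nt sequence cgcgacctcagatcaga had 10865, 48885 and 2346 reads and the 35-nt sequence 1460, 16285 and 4662, both highest in heart 7. The 32-nt sequence had 3836, 18551 and 19160 and was low in heart 6. The most common of the 20 to 24 nts class, the 24-nt sequence, had 11864, 8501 and 1190 and was low in heart 8. The 5 most common sequences of each library, which were not the same 5 in every heart, took 21.4%, 21.9% and 19.1% of its unannotated reads. The share on each library's leading sequences was thus alike, while its make-up differed between hearts. Only 5 unannotated sequences lay inside RefSeq rat hairpins, those of Mir676, Mir6329 and Mir6314, with 106 reads or fewer in any library.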

How the data were processed

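Small RNA libraries of 3 endocardial samples were analysed. The authors trimmed and aligned reads to miRBase v18 with CLC Genomics Workbench v4.0, allowing up to 2 mismatches within and 3 nts added or removed at either end, and grouped them on the mature sequence. The deposited read-level values were in RPM of annotated reads, from which whole reads were recovered (100% of values within 0.01 of a whole read). The deposited grouped values were a signal relative to each library's grouped reads (annotated reads for * strands), of which those from 100000 reads up were rounded to 1000 reads, and unannotated sequences were deposited as counts. No column lacked a sample.

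RPMM was recomputed from each library's own sum of annotated reads, and means, SDs and 95% Wilson intervals were computed with Python 3.11.15, numpy 2.4.6, pandas 2.3.3 and scipy 1.17.1. Reads of rat entries were aligned to their mature sequence with at most 3 nts gained or lost at the 5′ end and 3 mismatches, and 3′ tails were read against RefSeq hairpins. This step was checked on 1968 simulated reads, where 5′ ends, 3′ ends and tails were recovered in 100%, 100% and 99.8%. Names that join several entries (14171, 23286 and 13383 reads) were set aside. Of 336 entries, 309 matched a RefSeq mature sequence and 278 a hairpin of GRCr8. Positions are from RefSeq.

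No test was planned, and the layers were not tested against each other. Named were the 20 most abundant miRNAs (10 for isomiRs), * strands with a mean of at least 1000 RPMM or above their partner in all hearts, the 3 highest members of each cell type list and those at 0, the 5 leading entries of other species, the 5 largest and 5 smallest ranges over hearts, the leading unannotated sequences and a few miRNAs that the study names. The members and lists were chosen with earlier results of these data known. Alternatives covered the total, the read minimum, the source of reads, the entries used and leaving out each heart.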

Additional observations from a re-analysis of the deposited data

How the results depend on the processing

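Of 270 alternative values of 45 results, 240 stayed and 30 moved, 19 of them RPMM values that follow the total in use. A value stayed if it differed by no more than the SD over hearts, or, for counts and ranks, by no more than 1.5-fold. Counts could thus shift and still stay. With annotated plus unannotated reads as the total, 12 in place of 18 miRNAs exceeded 10000 RPMM and 43 in place of 56 exceeded 1000. With 10 reads asked for in all 3 libraries, 214 in place of 287 were detected. On reads annotated to rat entries, miR-486 came to 221109 and miR-22 to 166435 RPMM, and on annotated plus unannotated reads to 97792 and 77585. Counting exact mature reads alone, 162 miRNAs were detected in place of 287. Without miR-22, other 3′ ends rose from 53.9% to 64.3% and other 5′ ends from 8.05% to 9.67%, and without miR-133a they fell to 49.7% and 3.08%. With entries of all species other 5′ ends were 6.79%. The share at 22 nts was 45.6% of annotated reads and 13.8% of different sequences. Of 120 values that left out a heart, 2 moved: without heart 7 the ranks of miR-486 and miR-22 were swapped. Leaving out a heart cannot shift a mean over 3 hearts by more than their SD. The means among these 120 values could therefore only stay. They are counted in the 240 and do not show how steady the results are.

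The read-level regrouping of the leading miRNAs, the spread without each heart, the split by arm, leaving out miR-133a or miR-143, the seeds carried and the added precursor reads were chosen after seeing the data. No paired analysis was possible because the 3 endocardial libraries form 1 group and no test between layers was made. With 3 hearts, only the spread between animals and libraries together is measured, and the depth limits miRNAs under about 4 RPMM.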
